A study of Mus musculus with 8 samples.

Results

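Sox2-KD and Cdk9-KD are the pair of knockdowns compared directly here, that is the 2 libraries of mouse embryonic stem cells (ESCs) that received shRNAs against Sox2 and the 2 that received shRNAs against Cdk9, 4 of the 8 libraries of the series. They were taken by their column names in the table of counts, and the 2 control libraries take no part in the contrast. All 8 libraries are poly(A)-selected RNA-seq of E14, a male mouse ESC line, infected with a lentivirus that expresses an shRNA and selected with 1 µg/ml puromycin for 5 days. The paper grew E14 cells in serum medium with leukemia inhibitory factor, CHIR99021 and PD0325901. The part of this medium in the values below was not tested. The control received a negative control shRNA, and the remaining 2 libraries are labelled as an Hnrnpk knockdown. Each group is 1 cell line in biological duplicate, the cells are infected pools, and the labels do not say which of the designed shRNAs each library received. In bulk RNA, fewer cells that express a gene and less RNA of that gene per cell cannot be told apart.

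SOX2 is a transcription factor with an HMG box that binds DNA together with OCT4 and keeps ESCs pluripotent. When it is lost, ESCs are known to turn towards trophectoderm, the outer layer of the blastocyst. CDK9 is the kinase of P-TEFb, which joins a cyclin T partner and phosphorylates RNA polymerase II and the factors that pause it, so that polymerase moves on into the gene. The 7SK RNA and the HEXIM proteins hold P-TEFb inactive. One knockdown thus targets a regulator of chosen genes and the other a general kinase of transcription. A direct contrast shows how the transcriptomes of the 2 knockdowns differ, whatever the control.

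The target sites of the shRNAs are shown because they define the perturbations. Each was matched to the GENCODE vM21 transcripts (GRCm38), and is printed as the mRNA strand with the 21 target bases in capitals and 4 flanking bases on each side.
SOX2 shRNA1: atgaAGGAGCACCCGGATTATAAATaccg
SOX2 shRNA2: ttttCAAAGAGATACAAGGGAATTGggag
CDK9 shRNA1: acagGGACATGAAGGCTGCGAATGTgctc
CDK9 shRNA2: aaggGCATGCTGTCTACTCACTTGAcgtc
The first Sox2 site (chr3:34650729-34650749, + strand) is in the coding sequence of the single exon, and the other (chr3:34651412-34651432, + strand) is in the 3′ UTR. The Cdk9 sites (chr2:32709913-32709933 and chr2:32708046-32708066, − strand) are in coding exons 5 and 7 of the 7 exons of the longest coding transcript that carries each. Of the 9 annotated Cdk9 transcripts, 7 carry the first site and 4 the other, and 0 other genes carry any of the 4 sites without a mismatch.

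Each knockdown lowered its own target relative to the other. Sox2 stood at 320 and 284 CPM (counts scaled to library size with TMM factors) in Sox2-KD, at 591 and 534 in Cdk9-KD and at 412 and 530 in control. Both Sox2-KD libraries lay below both Cdk9-KD libraries, with a log2 fold change (log2FC, Sox2-KD minus Cdk9-KD unless control is named) of -0.90 (SE 0.16, n = 2 and 2, edgeR quasi-likelihood adjusted p = 0.00855). Against control, the log2FC of Sox2 was -0.64 in Sox2-KD (same test, adjusted p = 0.0479) and 0.25 in Cdk9-KD (0.624). Cdk9 stood at 125 and 132 CPM in Sox2-KD, at 73.1 and 53.2 in Cdk9-KD and at 109 and 129 in control. In Cdk9-KD against control, Cdk9 was not called (log2FC -0.91, same test, adjusted p = 0.0985). Its log2FC between the knockdowns was 1.03 (SE 0.18, adjusted p = 0.00734), with Sox2-KD near control and Cdk9-KD below it. Both calls rest in part on Sox2-KD replicate 2, without which the adjusted p was 0.0924 for Sox2 and 0.0577 for Cdk9.

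**Figure D1:**
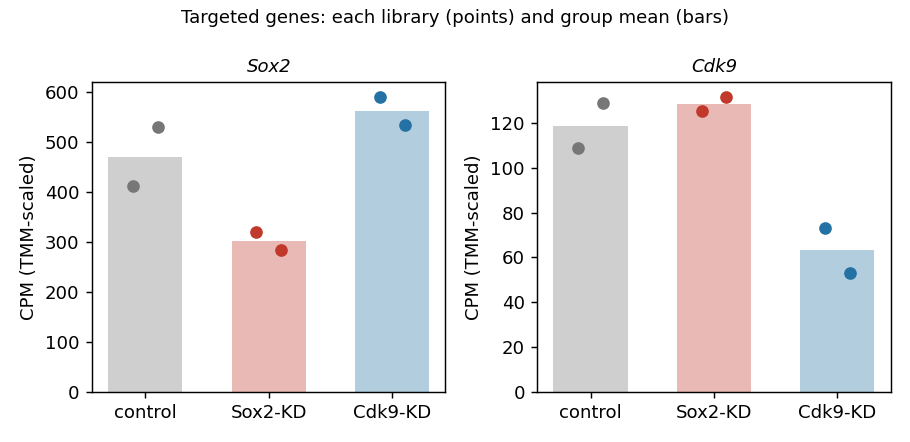
CPM of Sox2 (left) and Cdk9 (right) in the control, Sox2-KD and Cdk9-KD libraries, with each library as a point and the mean of 2 libraries as a bar. Sox2 was lowest in Sox2-KD (320 and 284 CPM) and Cdk9 was lowest in Cdk9-KD (73.1 and 53.2 CPM).

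The libraries held between 16709201 and 17719366 counts. ESC markers were abundant in all 8 (Pou5f1, Nanog, Zfp42, Esrrb, Dppa5a and Tdgf1 summed to between 4577 and 6246 CPM), and 7 fibroblast markers summed to at most 6.20 CPM. A pair of libraries stood apart in ways that touch the values below. In Cdk9-KD replicate 2 the 853 genes tested on chromosome 8 lay at a median of 0.27 above control on the log2 scale, whereas in replicate 1 it was 0.02. Its part in the values of Klf2, Sox1, Kbtbd11, Junb, Ier2, Col4a2 and Cdh1, which lie there, was not tested. The Hnrnpk mRNA of 1 library labelled hnRNPK-KD, replicate 2, was not reduced (1144 CPM against 1094 and 1131 in control). The libraries with this label are not in the contrast itself, but enter the filter on low counts, the scaling and the estimate of the spread. Without them 1241 genes were called in place of 1210, of which 1116 were among the 1210.

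Of 16504 genes tested, 1210 (7.33%) differed between the knockdowns (called where the adjusted p was below 0.05 and the log2FC beyond 0.6 in size, edgeR quasi-likelihood test). Of these, 787 (4.77% of those tested) were higher in Sox2-KD and 423 (2.56%) were lower. The median log2FC over all genes was -0.02, against 1.97 for the genes called higher and -1.55 for those called lower. An absolute log2FC over 2 was reached by 383 of the higher genes and by 130 of the lower ones. In all 1210 the libraries of the 2 knockdowns did not overlap, as was also so for 49.8% of the genes tested. The count depended on single libraries, and was 337 without Sox2-KD replicate 2, 546 without Cdk9-KD replicate 2, 829 without Cdk9-KD replicate 1 and 863 without Sox2-KD replicate 1.

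**Figure D2:**
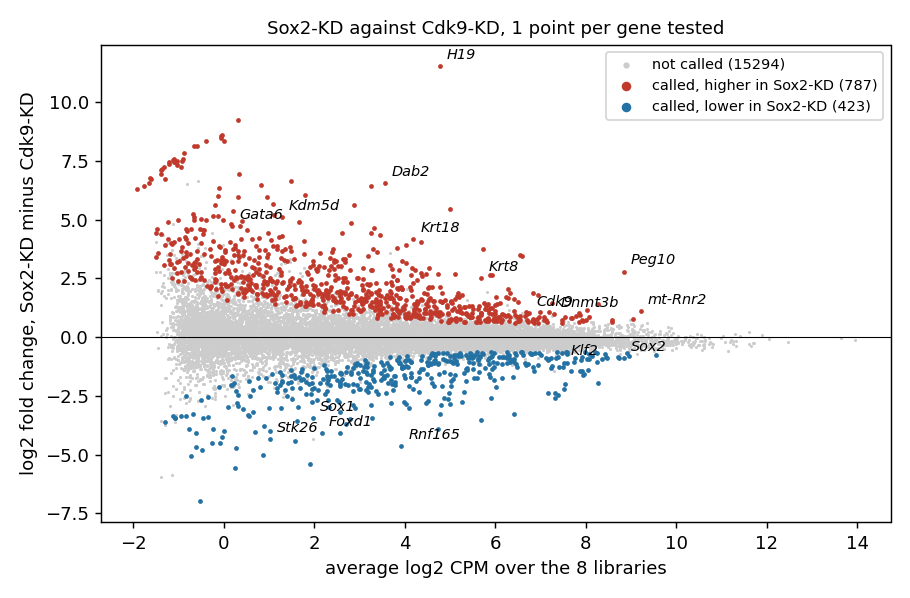
Log2 fold change (Sox2-KD minus Cdk9-KD, vertical axis) against the average log2 CPM over the 8 libraries (horizontal axis), with 1 point per gene tested, 787 genes called higher in red and 423 called lower in blue. The largest change was that of H19 (11.52), and the targeted genes lay among the abundant genes with small changes (-0.90 for Sox2 and 1.03 for Cdk9).

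The control libraries give the position of each difference. With the same thresholds, 713 genes (4.32%) were called in Sox2-KD against control and 23 (0.139%) in Cdk9-KD against control. These comparisons share their libraries with each other and with the direct contrast, so the counts are set side by side only. Without either control library they fell to 170 and 151 for Sox2-KD and to 1 and 0 for Cdk9-KD, for which DESeq2 called 222 genes on all libraries. The count was 343 and 144 for Sox2-KD without its replicate 1 and 2, and 6 for Cdk9-KD without its replicate 2. For each gene called between the knockdowns, the control mean was placed on the interval from the Cdk9-KD mean (0) to the Sox2-KD mean (1) in log2 CPM. The median place was 0.33 for the genes higher in Sox2-KD and 0.25 for those lower. The control mean lay in the middle of the interval, between 25% and 75%, for 564 of the 1210 genes. It lay in the 25% of the interval next to Cdk9-KD for 340 and in the 25% next to Sox2-KD for 81. For 199 genes it lay beyond Cdk9-KD and for 26 beyond Sox2-KD. Of all genes tested, the control mean lay in the middle for 21.7% and beyond Cdk9-KD for 34.8%. Called genes were chosen for a wide interval between the knockdowns, which by itself leaves the control mean outside it less often. The shares of called genes and of all genes are thus not comparable.

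**Figure D3:**
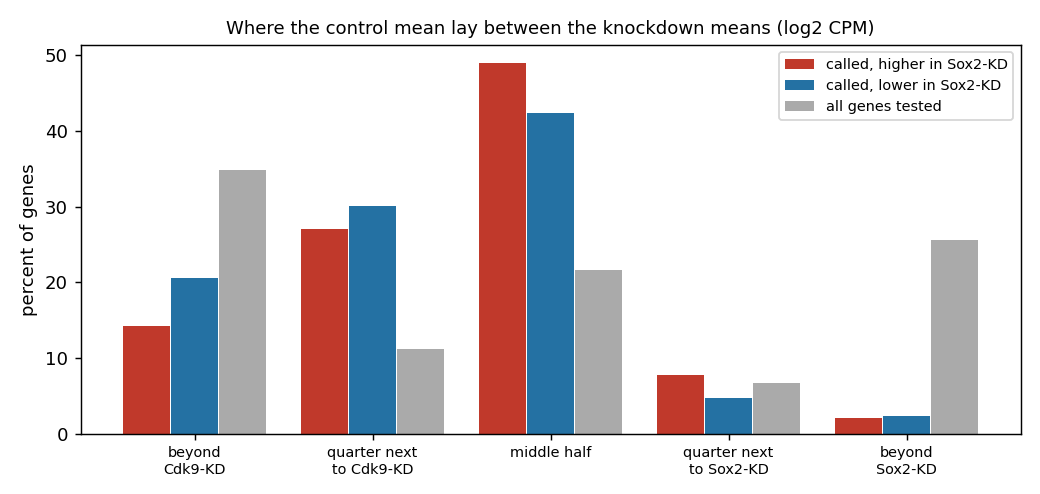
Percent of genes (vertical axis) by where the control mean lay relative to the means of the 2 knockdowns (horizontal axis), for the 787 genes called higher in Sox2-KD, the 423 called lower and all 16504 genes tested. The middle of the interval held 48.9% of the higher genes, 42.3% of the lower genes and 21.7% of all genes. The called genes were chosen for a wide interval, so their shares are not comparable with those of all genes.

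The largest differences in favour of Sox2-KD were held by genes that were close to undetected in Cdk9-KD. H19, the imprinted long noncoding RNA next to Igf2 (chromosome 7, 142575529 to 142578143, − strand), had 54.1 and 161 CPM in Sox2-KD, 0 and 0.0591 in Cdk9-KD and 0.507 and 0.229 in control. With 3800 counts against 1, its ratio was 3620 (95% interval 649 to 143000, counting error only; adjusted p = 0.000835). Dab2, an endocytic adaptor of extraembryonic endoderm, had 35 and 54.2 CPM in Sox2-KD, 0.701 and 0.237 in Cdk9-KD and 0.676 and 0.859 in control (log2FC 6.55, SE 0.43, adjusted p = 7.44e-05). Both genes were low in Cdk9-KD and in control and stood far above either in Sox2-KD.

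In others among the 12 largest, the control lay between the knockdowns. Akr1cl, an aldo-keto reductase, had 26.6 and 39.8 CPM in Sox2-KD, 0.526 and 0.237 in Cdk9-KD and 1.41 and 4.81 in control (log2FC 6.42, SE 0.65). Nlrp4c, of the NLR family, had 9.12 and 11.5 CPM in Sox2-KD, 0.234 and 0.0591 in Cdk9-KD and 1.41 and 3.09 in control (log2FC 6.06, SE 0.68). Pramel6, of the PRAME-like family, had 35.9 and 172 CPM in Sox2-KD, 2.86 and 1.83 in Cdk9-KD and 9.74 and 23.7 in control (log2FC 5.46, SE 0.81). The same order was seen for Vnn1, a pantetheinase, with 5.93 and 6.68 CPM in Sox2-KD against 0.0584 and 0.177 in Cdk9-KD. It was also seen for Lgals9, which encodes galectin-9, with 11.6 and 38.1 CPM against 0.759 and 0.237. In Dcdc2a, a doublecortin-domain gene, the difference came mainly from Cdk9-KD, with 0.0584 and 0.0591 CPM there, 3.35 and 9.76 in Sox2-KD and 1.86 and 4.53 in control. Its ratio of Sox2-KD to Cdk9-KD was 110.5 (95% interval 30.3 to 918, counting error only, 232 against 2 counts; adjusted p = 0.00222). Nlrp4c and Pramel6 belong to families of close copies, which the counting could split, so their values are uncertain.

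Of the rest of the 12, 3 lost the call when 1 library was left out. Rin3, a guanine nucleotide exchange factor for Rab5 proteins, Csf3r, the receptor of granulocyte colony-stimulating factor, and the interferon-inducible gene Ifi27 all had log2FCs between 4.86 and 5.21, and each lost its call without Cdk9-KD replicate 2 (adjusted p between 0.0513 and 0.107). Csf3r lost it also without Sox2-KD replicate 2 (0.13) and Cdk9-KD replicate 1 (0.0797). Ifi27 had 4.84 and 33.1 CPM in Sox2-KD, 0.993 and 0.296 in Cdk9-KD and 6.87 and 5.90 in control, so that Sox2-KD replicate 1 was below control. Kdm5d, a Y-linked histone demethylase, had 4.56 and 10.1 CPM in Sox2-KD, 0.175 and 0.237 in Cdk9-KD and 0.845 and 1.66 in control (log2FC 5.11, SE 0.60, adjusted p = 0.00162), and kept its call without each library in turn.

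The 12 largest differences in favour of Cdk9-KD had log2FCs between -5.39 and -3.50. Rnf165, a ubiquitin ligase that acts in BMP signalling of motor neurons, had 1.26 and 0.856 CPM in Sox2-KD, 24.1 and 28.5 in Cdk9-KD and 16.7 and 12.4 in control (log2FC -4.62, SE 0.30, adjusted p = 7.44e-05). Nkx1-2, a homeobox gene of early neural and axial progenitors, had 8.35 and 5.88 CPM in Sox2-KD, 55.6 and 109 in Cdk9-KD and 33.9 and 71.3 in control (log2FC -3.53, SE 0.49, adjusted p = 0.00285). Sema5b, a semaphorin, had 0.495 and 1.20 CPM in Sox2-KD, 18.9 and 9.40 in Cdk9-KD and 3.77 and 5.50 in control (log2FC -4.06, SE 0.54). Dab1, the adaptor of reelin signalling, had 1.26 and 0.571 CPM in Sox2-KD, 9.46 and 14.8 in Cdk9-KD and 3.55 and 3.61 in control (log2FC -3.71, SE 0.40). In Sema5b and Dab1, Cdk9-KD was above and Sox2-KD below both control libraries.

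Kbtbd11, a Kelch-domain gene on chromosome 8, had 3.68 and 1.71 CPM in Sox2-KD, 57.3 and 24.4 in Cdk9-KD and 31.1 and 14.0 in control (log2FC -3.91, SE 0.53). Stk26, an X-linked kinase, had 0.220 and 0.0571 CPM in Sox2-KD against 2.63 and 3.31 in Cdk9-KD (log2FC -4.34, SE 0.62). Mobp, named for myelin, had 0.714 and 0.514 CPM against 8.35 and 5.74 (log2FC -3.50, SE 0.54), and D630039A03Rik, with no known role, had 0.275 and 0.457 against 5.72 and 3.08 (log2FC -3.57, SE 0.51). Without each library in turn, these 4 genes kept the call. Vax2, a homeobox gene of the ventral eye, and Vax2os, annotated antisense to it and overlapping it, had log2FCs of -3.98 and -5.39. As the strand setting of the counting is not given, reads from the stretch they share (chromosome 6, 83711264 to 83712201) cannot be told apart. Gm2832 (log2FC -4.42) has near-identical copies and is uncertain. Foxd1, a forkhead factor, had 9.93 CPM in Cdk9-KD replicate 1 but 0.710 in replicate 2, below both control libraries (2.37 and 3.44), and without replicate 1 its adjusted p was 0.464. It was also above 0.05 without either Sox2-KD library (0.101 and 0.261) and without either control library (0.0553 and 0.0551). For Vax2 it was between 0.103 and 0.135 without either Sox2-KD library or Cdk9-KD replicate 1.

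Trophectoderm genes had the largest share of calls among the 23 lists, and most were higher in Sox2-KD. Of 15 tested members, 8 were higher and 1 was lower (60% called against 7.33% of all genes), with a median log2FC of 1.55 against -0.02 over all genes. The keratins of simple epithelia led the group. Krt8 had 97.1 and 182 CPM in Sox2-KD, 23.4 and 25.8 in Cdk9-KD and 18.4 and 17.4 in control (log2FC 2.50, SE 0.31, adjusted p = 0.00176). Its partner Krt18 had 41.4 and 82.7 CPM in Sox2-KD, 4.03 and 2.90 in Cdk9-KD and 3.27 and 2.86 in control (log2FC 4.16, SE 0.52, adjusted p = 0.00199). For both, Cdk9-KD was near control and Sox2-KD stood apart from either. Krt19 had 7.69 and 22.7 CPM in Sox2-KD against 1.64 and 1.48 in Cdk9-KD (log2FC 3.28, SE 0.48). Krt7 had 3.24 and 4.91 CPM against 0.117 and 0, which is a ratio of 69.1 (95% interval 18.8 to 576, counting error only, 145 against 2 counts; adjusted p = 0.00271).

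The regulators of the trophectoderm did not move as 1 group. Gata3, a GATA factor that drives trophectoderm genes, had 2.36 and 2.85 CPM in Sox2-KD, 0.117 and 0.237 in Cdk9-KD and 0.282 and 0.172 in control (log2FC 3.83, SE 0.60, adjusted p = 0.00487). Fgfr2, the FGF receptor of trophoblast stem cells, had 4.07 and 3.42 CPM in Sox2-KD against 0.175 and 0.591 in Cdk9-KD (log2FC 3.27, SE 0.54, adjusted p = 0.00588). Cdx2, the homeobox factor that specifies the lineage, went the other way, with 6.10 and 6.22 CPM in Sox2-KD, 22.4 and 29.0 in Cdk9-KD and 19.8 and 35.1 in control (log2FC -2.06, SE 0.54, adjusted p = 0.0449). Tfap2c, an AP-2 factor, had 28.7 and 32.5 CPM in Sox2-KD, 13.1 and 7.81 in Cdk9-KD and 43.4 and 43.0 in control. It was thus called higher in Sox2-KD (log2FC 1.55, SE 0.31, adjusted p = 0.0135) although both knockdowns lay below control. Eomes, a T-box factor of trophoblast and mesendoderm, was above control in both knockdowns, with 8.96 and 9.25 CPM in Sox2-KD, 19.5 and 14.3 in Cdk9-KD and 3.83 and 2.58 in control. Its adjusted p was 0.0166 in Sox2-KD against control, 0.0191 in Cdk9-KD against control and 0.0690 between them.

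Elf5, a defining factor of trophoblast stem cells, had at most 1 count in each of the 6 libraries of control, Sox2-KD and Cdk9-KD. Hand1, of trophoblast giant cells, was not tested, with 6 and 23 counts in Sox2-KD and 2 and 3 in Cdk9-KD. The number of called trophectoderm genes was 6 without Sox2-KD replicate 2 or without Cdk9-KD replicate 2, and 7 without either of the other 2 libraries compared. Gata3, Krt7, Krt8, Krt18, Krt19 and Fgfr2 kept the call without each of the 8 libraries in turn. Gata2 (log2FC 1.66, adjusted p = 0.0442) and Cdx2 lost it without any of the 4 libraries compared (adjusted p between 0.0772 and 0.211), and Tfap2c without replicate 2 of either knockdown (0.0856 and 0.0863).

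**Figure D4:**
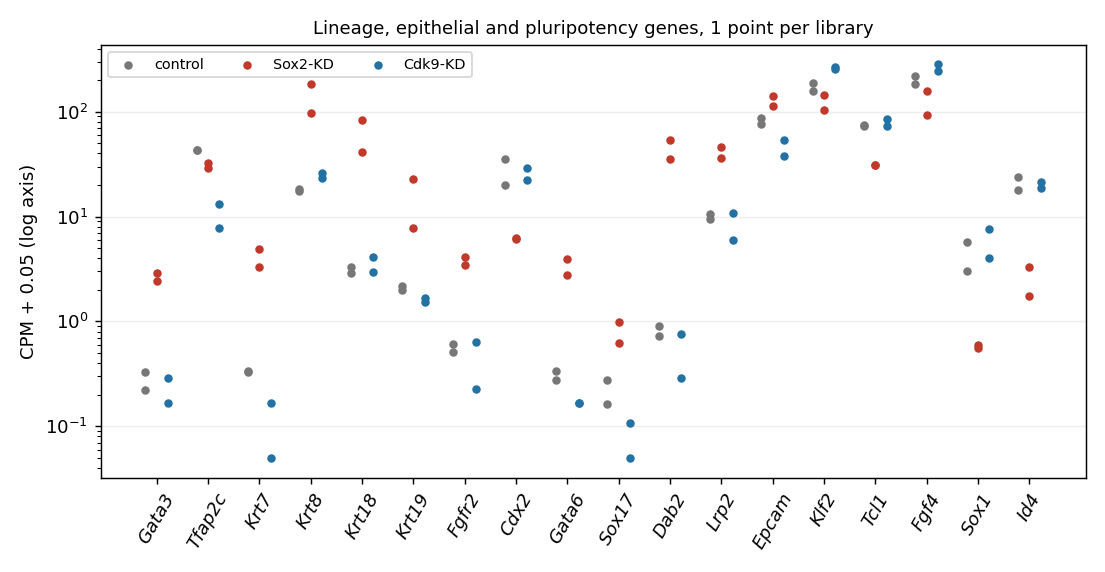
CPM plus 0.05 on a log axis for 18 genes of lineages, epithelium and pluripotency, with 1 point for each of the 2 control (grey), 2 Sox2-KD (red) and 2 Cdk9-KD (blue) libraries. Krt8, Krt18 and Dab2 stood far above both other groups in Sox2-KD, whereas Tfap2c was lowest in Cdk9-KD and Tcl1, Sox1 and Id4 were lowest in Sox2-KD.

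Of 14 tested genes of epithelial adhesion, 5 were higher in Sox2-KD, 0 were lower and 9 did not pass the test (35.7% called against 7.33% of all genes, median log2FC 0.73). Epcam, a homophilic adhesion molecule of epithelia and ESCs, had 114 and 142 CPM in Sox2-KD, 53.5 and 38.0 in Cdk9-KD and 75.7 and 87.7 in control. Its log2FC was 1.48 (SE 0.21, adjusted p = 0.00285), with control between the knockdowns. F11r, which encodes the junctional molecule JAM-A, had 68.6 and 83.4 CPM against 38.3 and 36.1 (log2FC 1.03, SE 0.17, adjusted p = 0.00554). Cldn7, a claudin, had 3.52 and 6.73 CPM against 1.05 and 0.710 (log2FC 2.53, SE 0.47). Ocln and the desmosomal Pkp2 had log2FCs of 2.09 and 1.004. Cdh1, the E-cadherin of ESCs, had 565 and 684 CPM against 405 and 470 (log2FC 0.51, adjusted p = 0.0902). Cdh2, the N-cadherin of neural and mesenchymal cells, was the 1 member with both Sox2-KD libraries below both Cdk9-KD libraries, at 4.73 and 1.997 CPM against 7.94 and 12.5 (log2FC -1.60, SE 0.47, adjusted p = 0.0679). Without Sox2-KD replicate 2 only 1 member was called, F11r then having an adjusted p of 0.0631 and Cldn7 one of 0.0947. Cldn7 was also not called without Cdk9-KD replicate 2 (0.0744), nor Ocln and Pkp2 without any of the 4 libraries compared (0.0594 to 0.237). Epcam alone kept the call without each library in turn.

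The primitive endoderm, the second extraembryonic lineage of the blastocyst, gave 3 of 7 tested regulators higher in Sox2-KD and 0 lower (42.9% called against 7.33% of all genes). Besides Dab2 these were Gata6, its first GATA factor, with 2.69 and 3.88 CPM in Sox2-KD, 0.117 and 0.118 in Cdk9-KD and 0.225 and 0.286 in control (log2FC 4.72, SE 0.69, adjusted p = 0.00344), and Sox17. Sox17 had 0.934 and 0.571 CPM against 0.0584 and 0, a ratio of 25.7 (95% interval 4.24 to 1053, counting error only, 27 counts against 1; adjusted p = 0.0417). Gata4, which follows Gata6 in this lineage, was not called, with 1.15 and 0.457 CPM in Sox2-KD, 2.51 and 1.77 in Cdk9-KD and 0.957 and 0.974 in control. Pdgfra, a surface marker of the lineage, had 2.75 and 3.08 CPM against 2.45 and 2.66. The call of Sox17 was lost without any of the 4 libraries compared and without either control library (adjusted p between 0.0617 and 0.197).

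Of 6 tested genes of endoderm uptake and secretion, 2 were higher and 1 was lower (50% called against 7.33% of all genes). Lrp2, the endocytic receptor megalin, had 45.7 and 35.7 CPM in Sox2-KD, 5.96 and 10.7 in Cdk9-KD and 9.40 and 10.4 in control (log2FC 2.29, SE 0.33, adjusted p = 0.00323). Apoe, an apolipoprotein, had 302 and 311 CPM in Sox2-KD, 705 and 415 in Cdk9-KD and 444 and 384 in control (log2FC -0.87, SE 0.21, adjusted p = 0.0348). Srgn, the proteoglycan serglycin, had 1.10 and 1.48 CPM against 0.117 and 0.0591, a ratio of 14.6 (95% interval 4.70 to 73.4, counting error only, 46 against 3 counts; adjusted p = 0.0121). Ttr, Afp and Fgb, products of differentiated endoderm, had at most 3 counts in each of the 6 libraries. Apoe lost its call without either Sox2-KD library or Cdk9-KD replicate 1 (adjusted p between 0.128 and 0.17), and Srgn without replicate 2 of either knockdown (0.0789 and 0.0844). The fit without Sox2-KD replicate 2 called 1 member, and Lrp2 kept the call without each library.

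Basement membrane genes split, with 2 of 10 higher and 3 lower (50% called against 7.33% of all genes). Lama1, the laminin chain of the early embryo, had 88.9 and 139 CPM in Sox2-KD, 341 and 278 in Cdk9-KD and 243 and 217 in control (log2FC -1.44, SE 0.20, adjusted p = 0.00301). Sparc, a matrix protein abundant in parietal endoderm, had 354 and 469 CPM in Sox2-KD, 194 and 207 in Cdk9-KD and 130 and 178 in control (log2FC 1.04, SE 0.20, adjusted p = 0.0121). Hspg2 (perlecan) and Nid1 (nidogen) were lower by 0.68 and 0.66, and the collagen gene Col4a2, on chromosome 8, was higher (log2FC 1.49, adjusted p = 0.0471). Without Sox2-KD replicate 2 or without Cdk9-KD replicate 2, 1 member was called. Sparc and Hspg2 lost the call without Sox2-KD replicate 2 or either Cdk9-KD library (adjusted p between 0.0532 and 0.2), Col4a2 without any of the 4 libraries compared (0.116 to 0.179) and Nid1 without 7 of the 8 libraries (0.0599 to 0.213). Lama1 kept its call throughout.

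Of 22 tested naive and core pluripotency genes, 5 were lower in Sox2-KD and 0 higher (22.7% called against 7.33% of all genes), with a median log2FC of -0.47. Tcl1, a coactivator of AKT, had 31.0 and 31.0 CPM in Sox2-KD, 84.3 and 73.6 in Cdk9-KD and 74.9 and 72.5 in control (log2FC -1.35, SE 0.15, adjusted p = 0.0012). Fgf4, the growth factor that ESCs secrete and a known joint target of SOX2 and OCT4, had 93.2 and 156 CPM in Sox2-KD, 244 and 283 in Cdk9-KD and 217 and 185 in control (log2FC -1.08, SE 0.22, adjusted p = 0.0159). Klf2, a Krüppel-like factor of the naive state on chromosome 8, had 103 and 143 CPM in Sox2-KD, 266 and 254 in Cdk9-KD and 157 and 186 in control. Its log2FC was -1.08 (SE 0.17, adjusted p = 0.00514), and lay between -1.33 and -0.88 without each library in turn.

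Tbx3, a T-box factor, had 227 and 308 CPM in Sox2-KD, 544 and 420 in Cdk9-KD and 256 and 321 in control (log2FC -0.85, SE 0.19, adjusted p = 0.0256), so that here Sox2-KD was near control. Nr5a2, a nuclear receptor, had 50.9 and 83.1 CPM against 100 and 192, and its adjusted p of 0.0476 was above 0.05 without 7 of the 8 libraries (0.0551 to 0.263). Fgf4 was not called without Sox2-KD replicate 1 (0.0673) or Cdk9-KD replicate 2 (0.075), nor Tbx3 without replicate 1 of either knockdown (0.143 and 0.118). The factors at the centre of the network were not called. Pou5f1, which encodes OCT4, had 584 and 653 CPM in Sox2-KD and 923 and 793 in Cdk9-KD (log2FC -0.47, SE 0.14, adjusted p = 0.0679). Nanog had 612 and 566 CPM against 639 and 696 (log2FC -0.18, SE 0.16), and Esrrb had 677 and 733 against 1163 and 854 (log2FC -0.52, adjusted p = 0.0796). The adjusted p-values of DESeq2 and the likelihood ratio test were 0.0402 and 0.0366 for Pou5f1 and 0.0452 and 0.0402 for Esrrb. For Nanog they were 0.718 and 0.639. The largest log2FC of the list was upward, that of Dppa3, a maternal factor that protects DNA methylation in the zygote, with 2.75 and 9.02 CPM in Sox2-KD, 1.11 and 0.414 in Cdk9-KD and 2.08 and 8.13 in control. It was not called by the quasi-likelihood test (log2FC 2.93, SE 0.80, adjusted p = 0.0514), but was called by DESeq2 (0.00114) and the likelihood ratio test (0.00423). In 15 of the 22 genes both Sox2-KD libraries lay below both Cdk9-KD libraries and in 2 above, while 49.8% of all genes did not overlap in either direction. Without Sox2-KD replicate 1 the number called was 3.

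Formative genes, which mark the exit from the naive state, split. Of 10 tested, 2 were higher and 2 lower (40% called against 7.33% of all genes). Dnmt3b, a de novo DNA methyltransferase, had 214 and 197 CPM in Sox2-KD, 94.8 and 114 in Cdk9-KD and 154 and 182 in control (log2FC 0.98, SE 0.17, adjusted p = 0.00713). Its cofactor Dnmt3l had 218 and 185 CPM in Sox2-KD, 106 and 134 in Cdk9-KD and 86.4 and 78.9 in control (log2FC 0.75, SE 0.16, adjusted p = 0.0183). Otx2, a homeobox factor of this state, had 1.87 and 1.20 CPM in Sox2-KD, 6.13 and 5.56 in Cdk9-KD and 1.52 and 1.78 in control (log2FC -1.92, SE 0.41, adjusted p = 0.0187). Fgf5, its defining growth factor, had 0 counts in all of these 6 libraries. Sall2 was lower (log2FC -1.66, adjusted p = 0.0103). Without Sox2-KD replicate 2 only 1 of the list was called. Otx2 lost its call without Sox2-KD replicate 2 or either Cdk9-KD library (adjusted p between 0.0583 and 0.158), Dnmt3l without either Sox2-KD library or Cdk9-KD replicate 1 (0.0563 to 0.113) and Sall2 without replicate 2 of either knockdown (0.082 and 0.0586), whereas Dnmt3b kept its call throughout.

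Of the Sox family, 10 members other than Sox2 were tested, and Sox17 was higher while Sox1, Sox13 and Sox21 were lower (40% called against 7.33% of all genes). Sox1, a relative of Sox2 in neural progenitors on chromosome 8, had 0.549 and 0.514 CPM in Sox2-KD, 3.97 and 7.63 in Cdk9-KD and 5.63 and 2.98 in control (log2FC -3.43, SE 0.49, adjusted p = 0.0031). Sox21 had 4.18 and 8.79 CPM in Sox2-KD, 25.0 and 30.2 in Cdk9-KD and 14.1 and 9.85 in control (log2FC -2.09, SE 0.39, adjusted p = 0.0110). Sox13 (log2FC -1.12, adjusted p = 0.0474) was called without Sox2-KD replicate 2 but not without any 1 of the other 7 libraries (adjusted p between 0.0515 and 0.168). Sox21 was not called without Sox2-KD replicate 1 (0.0527) or Cdk9-KD replicate 2 (0.0536). Without Sox2-KD replicate 1 or without Cdk9-KD replicate 2, 1 member was called. Sox15, which can stand in for Sox2 in ESCs, had 5.11 and 5.76 CPM against 3.797 and 3.84 and was not called.

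Of 7 tested neuroectoderm genes, Sox1 and Ncam1 were lower and 0 higher (28.6% called against 7.33% of all genes). Ncam1, the neural cell adhesion molecule, had 5.55 and 8.45 CPM in Sox2-KD, 23.5 and 22.2 in Cdk9-KD and 21.8 and 19.2 in control (log2FC -1.71, SE 0.26, adjusted p = 0.00375). Both kept the call without each library in turn. Pax6, a defining gene of neural progenitors, had at most 2 counts in each of the 6 libraries. Of 9 tested mesendoderm genes 1 was called (11.1%, near the 7.33% of all genes), Evx1, with 1.65 and 0.685 CPM in Sox2-KD against 0 and 0.118 in Cdk9-KD, a ratio of 20.0 (95% interval 5.20 to 171, counting error only, 42 against 2 counts; adjusted p = 0.0249). It lost the call without Sox2-KD replicate 1 (adjusted p = 0.13) and without either Cdk9-KD library (0.107 and 0.0562). Brachyury (T) had 9.56 and 3.31 CPM against 14.5 and 13.6 (adjusted p = 0.242).

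No gene of the machinery around CDK9 passed the test, where 7.33% of all genes were called. In a list this short, 0 calls are near that share. Of 16 tested genes of P-TEFb partners, 7SK factors and the super elongation complex, 0 were called by the quasi-likelihood test, by DESeq2 or by the likelihood ratio test, with 2 at an unadjusted p under 0.05. Their log2FCs lay between -1.27 and 0.43 with a median of -0.13. On all libraries, only Ell3 was beyond the 0.6 in size that a call needs (log2FC -1.27, quasi-likelihood adjusted p = 0.291). The other members could thus not be called at any p-value. Ccnt1, the main cyclin partner of CDK9, had 134 and 118 CPM in Sox2-KD and 105 and 164 in Cdk9-KD. Hexim1, the inhibitor of P-TEFb, had 98.6 and 82.9 CPM in Sox2-KD, 77.3 and 70.0 in Cdk9-KD and 65.2 and 63.6 in control (log2FC 0.30, SE 0.15, adjusted p = 0.276). Larp7, which binds the 7SK RNA, had 141 and 130 CPM in Sox2-KD, 101 and 99.2 in Cdk9-KD and 132 and 138 in control (log2FC 0.43, SE 0.13, adjusted p = 0.0819). Without Cdk9-KD replicate 1, 1 member was called.

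Of 12 pausing and elongation factors (the NELF, DSIF and PAF complexes and Supt6), 0 were called by any of the 3 tests and 1 had an unadjusted p under 0.05, with log2FCs between -0.39 and 0.23. Of 12 genes of the other transcriptional CDKs and their cyclins, 0 were called by any of the 3 tests and 0 had an unadjusted p under 0.05, with log2FCs between -0.26 and 0.30. In each of these tests a call needed a log2FC beyond 0.6 in size. No member of either list reached that size, so none could be called at any p-value. The 0 calls thus say only that the differences were below 0.6. The quasi-likelihood test called 7.33% of all genes, and in lists of 12 genes 0 calls are near that share. Cdk12, which acts on polymerase within genes, had 156 and 161 CPM in Sox2-KD and 122 and 136 in Cdk9-KD, and its partner Ccnk had 84.6 and 82.4 against 102 and 95.2. Cdk7 had 78.2 and 62.2 CPM against 68.7 and 72.1.

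Immediate early genes, short-lived transcripts known to need release of paused polymerase, gave 3 higher and 1 lower of 17 tested (23.5% called against 7.33% of all genes), with a median log2FC of 0.63. Zfp36, which promotes decay of AU-rich mRNAs, had 11.4 and 14.4 CPM in Sox2-KD, 4.79 and 3.31 in Cdk9-KD and 5.46 and 4.12 in control (log2FC 1.67, SE 0.30, adjusted p = 0.00889). Junb and Ier5 were higher (log2FC 0.99 and 0.84) and Ier2 lower (-0.77), with adjusted p-values of 0.0415, 0.0480 and 0.0423. Fos had 2.14 and 2.51 CPM in Sox2-KD and 1.93 and 1.06 in Cdk9-KD. Myc, the other way round, had 6.87 and 6.22 against 20.7 and 12.01 (adjusted p = 0.162). Zfp36 lost its call without replicate 2 of either knockdown (adjusted p = 0.0771 and 0.0619), while Junb, Ier2 and Ier5 each lost it without at least 5 of the 8 libraries (0.051 to 0.302). When Sox2-KD replicate 2 was left out, 0 of the 17 were called by the quasi-likelihood test.

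**Figure D5:**
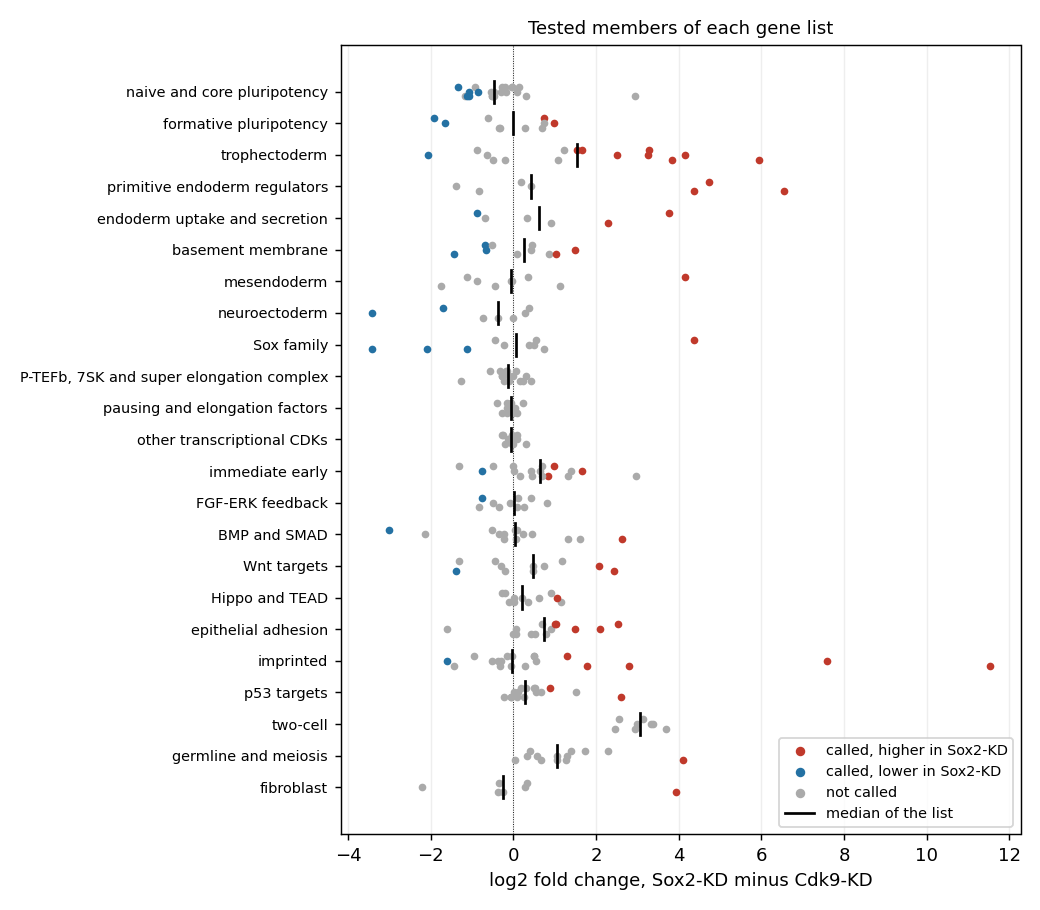
Log2 fold change (Sox2-KD minus Cdk9-KD, horizontal axis) of each tested member of the 23 gene lists (1 row per list), with members called higher in red, called lower in blue, not called in grey and the median of the list as a black bar. The median was 1.55 for trophectoderm genes, -0.47 for naive and core pluripotency genes, and between -0.13 and -0.06 for the 3 lists of transcription machinery.

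Among 14 tested genes of BMP signalling (14.3% called against 7.33% of all genes), Id2 was higher and Id4 lower, both encoding inhibitors of bHLH factors. Id4 had 3.24 and 1.71 CPM in Sox2-KD, 21.5 and 18.7 in Cdk9-KD and 17.9 and 24.0 in control (log2FC -3.02, SE 0.42, adjusted p = 0.00299), and kept its call without each library. Id2 had 14.9 and 13.0 CPM in Sox2-KD, 1.17 and 3.31 in Cdk9-KD and 1.58 and 4.64 in control (log2FC 2.63, SE 0.57, adjusted p = 0.0208), a call lost without either Sox2-KD library and without Cdk9-KD replicate 1 (0.0666 to 0.0906). The ligand Bmp4 was high in both knockdowns, with 58.5 and 65.5 CPM in Sox2-KD, 88.3 and 87.8 in Cdk9-KD and 17.4 and 27.6 in control. Its adjusted p was 0.00948 and 0.0191 against control and 0.229 between the knockdowns.

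Of 11 tested Wnt targets 3 were called (27.3% against 7.33% of all genes). The Wnt antagonist Dkk1 had 7.80 and 6.16 CPM in Sox2-KD against 0.935 and 1.66 in Cdk9-KD (log2FC 2.43, SE 0.54, adjusted p = 0.0231). Rnf43, a ligase that removes Wnt receptors, had 4.84 and 6.28 against 1.29 and 1.36 (log2FC 2.06, SE 0.42, adjusted p = 0.0148), and Notum, which inactivates Wnt proteins, had 27.7 and 13.3 against 59.2 and 48.1 (log2FC -1.39, SE 0.29, adjusted p = 0.0182). Without Sox2-KD replicate 2 or without Cdk9-KD replicate 1, 0 were called by the quasi-likelihood test (adjusted p between 0.0658 and 0.11 for these 3 genes), whereas on all libraries DESeq2 called 4 and the likelihood ratio test 5, and 7 had an unadjusted p under 0.05. Spred1 was the 1 of 10 genes (10% against 7.33% of all genes) of FGF-ERK feedback that was called (lower, log2FC -0.76, adjusted p = 0.0403). It was not called without 6 of the 8 libraries (log2FC -0.81 to -0.71 without each library in turn). Lats2, a kinase of the Hippo pathway, was the 1 of 11 genes (9.09% against 7.33% of all genes) called in that list (higher, log2FC 1.05, adjusted p = 0.0476). It lost its call without any 1 of the 8 libraries (log2FC 0.98 to 1.11 without each in turn). In both lists the share called was near that of all genes.

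Of 19 tested imprinted genes, 5 were higher and 1 lower (31.6% called against 7.33% of all genes), with a median log2FC of -0.03. Beside H19, Igf2, the growth factor it is co-regulated with, had 1.43 and 1.31 CPM in Sox2-KD and 0 counts in both Cdk9-KD and both control libraries. Igf2 was thus at least 15.6-fold higher in Sox2-KD (49 counts against a floor of 3 counts over the group, counting error only; adjusted p = 0.0102). Peg10, a retrotransposon-derived gene needed in the placenta, was the most abundant of them, with 1279 and 859 CPM in Sox2-KD, 92.8 and 216 in Cdk9-KD and 129 and 89.0 in control (log2FC 2.79, SE 0.53, adjusted p = 0.0116). The cell cycle inhibitor Cdkn1c and Nnat had log2FCs of 1.79 and 1.31, and Gnas was lower (log2FC -1.60, adjusted p = 0.0093). Meg3 and Rian, noncoding RNAs of the Dlk1 domain, had log2FCs of -0.03 and -0.30 and were not called. Plagl1 had 340 CPM in Cdk9-KD replicate 2 against 77.7 in replicate 1 and between 71.3 and 137 in the control and Sox2-KD libraries. Peg10 lost its call without Cdk9-KD replicate 1 (adjusted p = 0.0629), Gnas without Sox2-KD replicate 2 (0.086), Igf2 without replicate 2 of either knockdown (0.0519 and 0.0513), Cdkn1c without Sox2-KD replicate 2 or either Cdk9-KD library (0.108 to 0.256) and Nnat without 6 of the 8 libraries. In the fit without Sox2-KD replicate 2 there were 2 calls, and H19 kept its call throughout.

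Of 16 tested p53 targets, 2 were higher and 0 lower (12.5% called against 7.33% of all genes). Pmaip1, which encodes the death protein NOXA, had 30.4 and 45.6 CPM in Sox2-KD, 8.24 and 4.20 in Cdk9-KD and 20.6 and 12.9 in control (log2FC 2.61, SE 0.38, adjusted p = 0.00309), and kept its call without each library. Sesn1 had 54.5 and 52.3 CPM against 21.7 and 36.5 (log2FC 0.88, SE 0.23, adjusted p = 0.0420), and was not called without 5 of the 8 libraries (0.054 to 0.163). Cdkn1a, the p53 target that stops the cell cycle, had 412 and 377 CPM against 280 and 218 (log2FC 0.67, adjusted p = 0.0638), and Mdm2 had 227 and 292 against 162 and 380. With the likelihood ratio test 4 members were called.

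The genes of the 2-cell state, which a few ESCs express at a time, were above Cdk9-KD in both Sox2-KD libraries for all 8 tested members, while 49.8% of all genes did not overlap in either direction. Their log2FCs lay between 2.45 and 3.69, with a median of 3.07, but 0 passed the quasi-likelihood test, with 5 at an unadjusted p under 0.05, 1 called by DESeq2, 3 by the likelihood ratio test and 6 in a fit of the 4 libraries alone. Zscan4c, of the Zscan4 cluster on chromosome 7, had 4.84 and 4.22 CPM in Sox2-KD, 0.467 and 0.414 in Cdk9-KD, and 8.56 and 0.573 in the control libraries (adjusted p = 0.118). The control replicates thus differed from each other by more than the knockdowns did. Over the list, the median log2FC against control was 0.001 in Sox2-KD and -2.97 in Cdk9-KD, with 0 members called in either. The Zscan4 genes are near-identical copies, and their counts are not independent of each other.

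Of 13 tested germline and meiosis genes, 1 was called higher and 0 lower, which is 7.69% against 7.33% of all genes. In 9 of them both Sox2-KD libraries lay above both Cdk9-KD libraries, while 49.8% of all genes did not overlap in either direction. The called gene, Xlr5b, had 3.68 and 7.59 CPM in Sox2-KD, 0.526 and 0.118 in Cdk9-KD and 4.73 and 7.22 in control (log2FC 4.09, SE 0.61, adjusted p = 0.0037). Sox2-KD was at the control level there, and its adjusted p in Cdk9-KD against control was 0.0416. Xlr5b has near-identical X-linked copies and is uncertain. Hormad1, a meiotic chromosome protein, had 11.5 and 11.7 CPM in Sox2-KD, 5.37 and 1.54 in Cdk9-KD and 27.7 and 33.3 in control (adjusted p = 0.135), so that both knockdowns lay below control.

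Of 7 tested fibroblast genes 1 was called (14.3% against 7.33% of all genes), Lum, with 1.26 and 0.742 CPM in Sox2-KD against 0.0584 and 0.0591 in Cdk9-KD, a ratio of 17.15 (95% interval 4.41 to 147, counting error only, 36 against 2 counts; adjusted p = 0.0281). The 7 fibroblast markers summed for each library (Col1a1, Col1a2, Col3a1, Dcn, Lum, Postn and Thy1) are a set apart from the 7 tested genes. They summed to 5.28 and 4.62 CPM in Sox2-KD and to 4.91 and 2.25 in Cdk9-KD, with Dcn and Postn at 0 counts in both Cdk9-KD libraries. DESeq2 did not call Lum, and without any of the 4 libraries compared its call was lost (adjusted p between 0.0789 and 0.143). Markers of other lineages were also summed, and these sums hold genes already described. Cdx2, Gata3, Elf5, Krt8 and Krt18 summed to 147 and 274 CPM in Sox2-KD and to 50 and 57.95 in Cdk9-KD, and Gata4, Gata6, Sox17, Pdgfra and Dab2 to 42.5 and 62.2 against 5.84 and 4.79. Krt8, Krt18 and Dab2 made up most of these sums in Sox2-KD. The neural markers Pax6, Sox1 and Nes summed to 28.0 and 43.0 CPM in Sox2-KD and to 31.95 and 49.6 in Cdk9-KD, which overlapped.

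Among the most abundant genes called, Peg10, Apoe and Hspg2 are described above. Iqgap1, a scaffold of the actin cortex, had 448 and 542 CPM in Sox2-KD and 301 and 327 in Cdk9-KD (log2FC 0.66, SE 0.16, adjusted p = 0.0295). Mt-Rnr2, the large ribosomal RNA of mitochondria, and Smg1, a kinase of nonsense-mediated decay, had log2FCs of 1.12 and 0.75 and adjusted p-values of 0.0480 and 0.0499. Mybl2, a MYB factor of dividing cells, had 557 and 598 CPM in Sox2-KD, 1065 and 884 in Cdk9-KD and 642 and 685 in control (log2FC -0.75, SE 0.15, adjusted p = 0.0138). Kdm5b, a histone demethylase, had 253 and 386 CPM in Sox2-KD, 604 and 522 in Cdk9-KD and 487 and 664 in control (log2FC -0.82, SE 0.21, adjusted p = 0.0429). All 5 of these genes lost the call without at least 3 of the 4 libraries compared (adjusted p up to 0.238).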

How the data were processed

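Raw counts per gene were deposited by the authors, who trimmed the read pairs with Trimmomatic and mapped them to mm10 with STAR, using the GENCODE vM23 annotation. The submitters' processing notes name STAR 2.7.9a and featureCounts 2.0.1. The strand setting is not given in the sources used here, and the counts were neither normalized nor pooled. All 8 columns were matched to samples by name. The table held 55335 genes, of which 181 had no symbol in GENCODE vM21, and 16504 passed filterByExpr (minimum count 10, minimum total count 15). The contrast was fitted on all 8 libraries, which share 1 estimate of the spread, with TMM scaling and the quasi-likelihood test of edgeR 4.0.16 in R 4.3.3, and p-values were adjusted over all genes by Benjamini-Hochberg. A gene was called where the adjusted p was below 0.05 and the log2FC beyond 0.6 in size. A single-gene exact permutation test of 2 against 2 cannot go below p = 0.333. P-values set a difference against the spread between duplicates, estimated over all 8 libraries, and counting intervals cover counting error only.

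The comparison and the 23 gene lists were chosen with earlier results of these data known. The genes named are Sox2 and Cdk9, members of the lists, the 12 strongest log2FCs in each direction among called genes without overlap between the groups whose average log2 CPM exceeded 1, and the 5 most abundant called genes in each direction, of which 1 is not reported here. The shRNA oligonucleotides were read from the study's supplement and matched to GENCODE vM21 transcripts. Alternatives were RLE size factors, library totals, DESeq2 1.42.0, the likelihood ratio test, other filters and thresholds, subsets of libraries, the replicate number as a block and leaving out each library. The crossed block was added after seeing the data. The script was tested on simulated data. Plots were made in Python 3.11.15 (matplotlib 3.10.9).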

Additional observations from a re-analysis of the deposited data

How the results depend on the processing

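The likelihood ratio test called 1869 genes (1205 higher and 664 lower in Sox2-KD) in place of 1210 (787 and 423), and restricting the test to genes with an average log2 CPM over 3 left 598 (331 and 267). RLE size factors, library totals, DESeq2, omitting the filter, a minimum of 10 counts per library, the 4 libraries alone, the fit without the libraries labelled hnRNPK-KD and an absolute log2FC over 1 gave between 869 and 1433 calls. Leaving out each library in turn gave between 337 and 1286 calls (189 to 877 higher, 148 to 412 lower), log2FCs between -0.997 and -0.80 for Sox2 and between 0.81 and 1.29 for Cdk9, and the smallest count came without Sox2-KD replicate 2. A lone library was then assumed to vary like the other groups. Of the 90 genes followed (named, or called in a list), 37 kept their call without each library, and all kept their direction in the settings run. Cdx2, Sox17 and Lum were not called by DESeq2. The cause of these shifts was not tested.

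Against control, DESeq2 called 1029 genes in Sox2-KD in place of 713 and 222 in Cdk9-KD in place of 23, and leaving out each library gave between 144 and 840 and between 0 and 33.

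The replicate numbers mark no batch in the labels, and the replicate differences of Sox2-KD and Cdk9-KD correlated at -0.22 over genes. With a replicate block 1165 genes were called (756 higher, 409 lower; Sox2 log2FC -0.90, Cdk9 log2FC 1.02), of which 1070 were among the 1210. With the numbers of Cdk9-KD exchanged, the block gave 1331 (863 and 468).

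With 2 libraries a group and a biological coefficient of variation of 0.186 (0.218 within Cdk9-KD and 0.182 within Sox2-KD), small differences could be missed, also in abundant genes. Differences of 0.6 or less in size were not called at any p-value. The abundant Pou5f1, with a log2FC of -0.47, was below that size, and its quasi-likelihood adjusted p was 0.0679. DESeq2 gave it an adjusted p of 0.0402 and the likelihood ratio test one of 0.0366. The smallest detectable difference was not estimated.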

Other observations

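The genes called can be described by their structure. The median span on the genome was 28602 bp for genes higher in Sox2-KD and 35189 bp for genes lower, against 18268 bp for all genes tested, and the median number of exons was 8 in both sets against 6. Protein-coding genes made up 91.0% of the higher and 93.1% of the lower genes, and 82.0% of all tested. Single-exon genes made up 8.40% and 5.20%, against 15%. The median exonic length was 4046 and 4566 bp against 3786 bp. These values are descriptive, with no test. A comparison of promoter sequence is void, since promoters were matched for 68.0% of the genes tested, 70.8% of those higher and 74.0% of those lower.

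The share of genes called varied between chromosomes, with no test made. On the X chromosome 79 of 596 genes tested were called (13.3%, 50 higher and 29 lower), on chromosome 17 it was 31 of 817 (3.79%), and over all genes 7.33%. On chromosome 8, where the genes of Cdk9-KD replicate 2 lay above control, 65 of 853 were called (7.62%, 34 higher and 31 lower), with a median log2FC of -0.12.

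Kdm5d was the 1 called gene of the 12 tested on the Y chromosome. Other Y-linked genes were not called. Eif2s3y had 81.4 and 80.2 CPM in Sox2-KD and 73.4 and 113 in Cdk9-KD, Uty had 34.6 and 28.1 against 24.4 and 48.5, and Ddx3y had 122 and 97.4 against 71.1 and 173. These 3 genes were chosen after their values were seen.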
